A study of Mus musculus with 10 samples.

Results

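The SLC4 family of bicarbonate and borate transporters was followed here through 9 of its genes, picked by name from the 55450 genes of the deposited count table: Slc4a11, Slc4a4, Slc4a5, Slc4a7, Slc4a10, Slc4a8, Slc4a1, Slc4a2 and Slc4a3. The RNA came from corneal endothelium peeled from C57BL/6 mice at 12 weeks of age. One group carried the genotype Slc4a11-/- (KO) and the other Slc4a11+/+ (WT), with 5 libraries in each and no treatment named for either. A library was a pool of 6 peelings, one per eye of 3 mice, and p-values therefore rest on the variation among pools. How the deleted allele was made, and which exons it lacks, are details not given in the sources used here.

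The corneal endothelium is the cell layer that lines the back of the cornea and keeps the stroma clear by moving ions, and water with them, into the anterior chamber. Bicarbonate is central to this work: it enters the cell with sodium through cotransporters of the SLC4 family, is interconverted with carbon dioxide by carbonic anhydrases, and leaves by anion pathways, while the sodium pump sets the gradient. The family holds sodium bicarbonate cotransporters, anion exchangers that swap bicarbonate for chloride, and the divergent member SLC4A11, which was first described as a borate transporter and moves protons rather than bicarbonate. Mutations of human SLC4A11 cause congenital hereditary endothelial dystrophy, and mutations of SLC4A4 cause a renal acidosis with eye involvement.

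Total counts ranged from 36026193 to 51008996 per library. Markers of corneal endothelium (8 genes, among them the Descemet membrane collagen Col8a2) were present in every library, with a summed level of 10727 to 11941 CPM in WT and 9444 to 12127 CPM in KO, where CPM is the count per megaread of scaled library size. Keratocyte markers took up more of the reads, at 65333 to 100603 CPM in WT and 68495 to 91894 CPM in KO. These sums are not scaled by gene length. Epithelial markers summed to 51.8 to 182 CPM in WT. In KO they were at 52.6 CPM in KO 3, 212 CPM in KO 4 and 563 CPM in KO 2. They reached 1792 CPM in KO 1 and 3471 CPM in KO 5. Of the 10 markers 8 rose, where 7.59% of all genes tested rose.

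In WT, Slc4a11 was by far the most abundant of these genes. Levels can be compared between genes only per length, so CPM was divided by the length of a gene's merged exons in kilobases (CPM per kb). On that scale WT Slc4a11 stood at 759 ± 72.4 (SD, n = 5), rank 47 among the 17729 genes tested. Slc4a4, the electrogenic sodium bicarbonate cotransporter NBCe1, followed at 89.7 ± 2.63 CPM per kb, 8.46-fold lower. Slc4a2, the widely expressed anion exchanger AE2, came next at 7.35 ± 0.387 CPM per kb. Slc4a8, a sodium-driven chloride bicarbonate exchanger, was at 2.44 ± 0.102, Slc4a3, the anion exchanger AE3, at 1.34 ± 0.447, and Slc4a7, the electroneutral cotransporter NBCn1, at 0.520 ± 0.0505 CPM per kb. The ranges of the 5 WT libraries did not overlap between any neighbours in this order.

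At the bottom of the WT order, neighbours could not be separated in full. Slc4a10, an electroneutral sodium bicarbonate transporter best known from brain, was at 0.0822 ± 0.0159 CPM per kb (SD, n = 5) and Slc4a5, the second electrogenic cotransporter NBCe2, at 0.0534 ± 0.0519. Slc4a10 was above Slc4a5 in 4 of 5 WT libraries and their ranges overlapped. Slc4a1, the red cell anion exchanger AE1, was last at 0.00359 CPM per kb. Dividing by the longest transcript in place of the merged exons left the order of all 9 genes as it was in both genotypes.

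**Figure D1:**
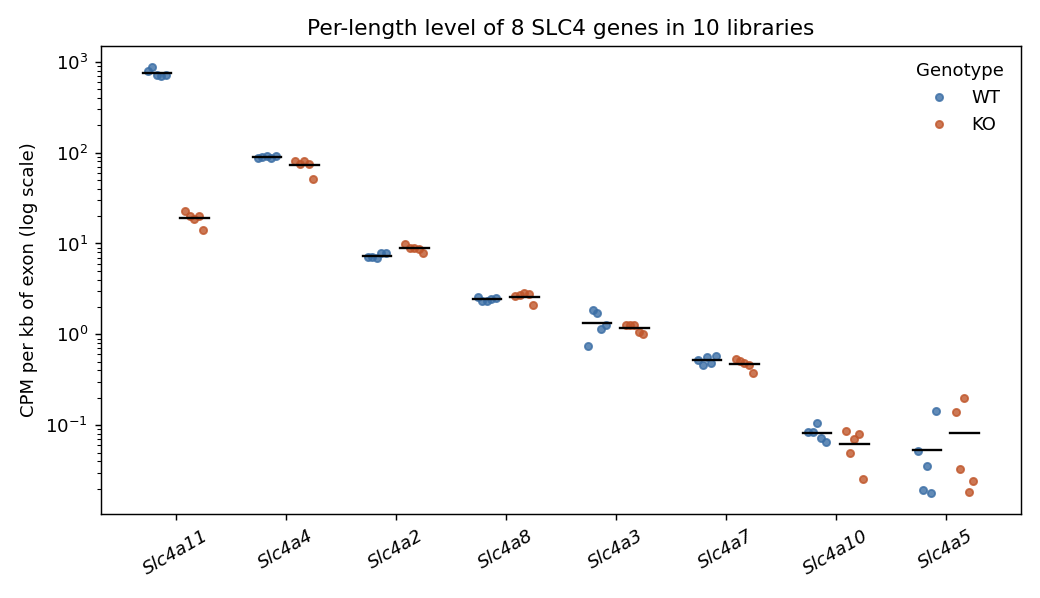
Per-length level (CPM per kb of merged exon, log axis) of 8 SLC4 genes; each point is 1 library, 5 WT in blue and 5 KO in orange, and black bars are group means. Slc4a11 falls from a WT mean of 759 to a KO mean of 19.1 and drops below Slc4a4, while the other genes keep their places apart from the lowest pair; Slc4a1, with 4 counts in all libraries together, is left out.

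The start regions of Slc4a4 and Slc4a2, the 2 members with the most RNA after Slc4a11, are shown here because for both genes the KO libraries lay wholly to one side of the WT libraries. RefSeq promoter sequences (GRCm38.p6) were found by symbol for 7 of the 9 genes; Slc4a11 and Slc4a1 had no entry. Below are the 250 bases before each Slc4a2 start in that RefSeq set, numbered within it. Slc4a2 is the anion exchanger that rose in KO, and GENCODE M21 begins the gene further upstream, at 24423837. Also shown is the window before the downstream RefSeq start of Slc4a4, the cotransporter that led the family in KO. All lie on the plus strand of chromosome 5 and are written 5′ to 3′ with every CG dinucleotide in capitals.
Slc4a2, first start, chr5:24424982-24425231: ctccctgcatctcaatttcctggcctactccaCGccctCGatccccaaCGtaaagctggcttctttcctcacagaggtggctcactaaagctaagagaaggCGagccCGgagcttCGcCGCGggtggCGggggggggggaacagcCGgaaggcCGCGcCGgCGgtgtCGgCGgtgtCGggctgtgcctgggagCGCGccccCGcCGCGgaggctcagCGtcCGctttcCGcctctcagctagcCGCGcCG
Slc4a2, second start, chr5:24425594-24425843: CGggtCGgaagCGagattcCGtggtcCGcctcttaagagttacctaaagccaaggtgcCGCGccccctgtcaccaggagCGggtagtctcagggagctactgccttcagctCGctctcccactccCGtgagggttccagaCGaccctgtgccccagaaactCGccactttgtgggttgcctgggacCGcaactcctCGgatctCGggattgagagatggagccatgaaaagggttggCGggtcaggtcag
Slc4a4, downstream start, chr5:89027716-89027965: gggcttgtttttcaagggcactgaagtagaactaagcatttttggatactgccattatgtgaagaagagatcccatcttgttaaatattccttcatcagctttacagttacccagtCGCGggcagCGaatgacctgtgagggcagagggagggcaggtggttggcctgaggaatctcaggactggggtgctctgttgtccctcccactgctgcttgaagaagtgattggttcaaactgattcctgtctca
The first Slc4a2 window held 28 CG dinucleotides and the second 16, and the downstream Slc4a4 window held 3. Across all 32851 promoter windows of this length the median was 6, 92.1% held at least 1 CG, and 7.61% held as many as the first Slc4a2 window. The window before the upstream Slc4a4 start, not printed because annotated exons cover it, held 44, and 0.539% of all windows held as many. The downstream window printed above therefore does not stand for Slc4a4 as a whole. Counts per gene do not tell which start a transcript used, so the starts of a gene cannot be separated in the values that follow.

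Most of the family's RNA was missing in KO, through Slc4a11 itself. The gene is encoded on chromosome 2 (GRCm38 130684113 to 130697519, minus strand). In WT it was at 3946, 4357, 3568, 3489 and 3597 CPM in libraries 1 to 5. In KO it was at 114, 101, 92.6, 99.5 and 70.1 CPM. The groups were far apart, and even the KO library with the most Slc4a11 RNA had 3.01% of the WT mean. The log2 fold change was -5.31 (SE 0.14; edgeR adjusted p = 9.5e-10).

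What remained of Slc4a11 in KO was still above most of its relatives. Its KO level of 19.1 ± 3.24 CPM per kb (SD, n = 5) ranked 2 of the 9 genes, below Slc4a4 and 2.16-fold above Slc4a2, and KO ranges did not overlap with either. Among all genes tested its rank moved from 47 in WT to 2476 in KO. Gene-level counts do not show which exons the remaining reads fell in. The divisor was the merged exon length of the intact gene (4998 bp), so the KO level per kb and its ranks hold only for that length.

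The 3 genes whose profile over the 10 libraries was nearest to that of Slc4a11 were Vwde, Vldlr and Frem3, out of 11457 genes that averaged 5 CPM or more. The measure was the root mean square difference of log2 CPM after the WT mean of each gene was subtracted; it was 1.24 for Vwde, 1.73 for Vldlr and 1.96 for Frem3. All were lower in KO. Because Slc4a11 itself fell far in KO, the measure picks genes that fell, so this is not a separate result. Vwde, which has von Willebrand factor D and EGF domains, spanned 110.1 to 161 CPM in WT and 7.96 to 12.5 CPM in KO. The lipoprotein receptor Vldlr spanned 9.28 to 19.2 CPM in WT and 1.48 to 2.11 CPM in KO, and the basement membrane protein Frem3 796 to 849.9 CPM in WT and 93.6 to 176 CPM in KO. Their log2 fold changes were -3.58, -2.97 and -2.52, against -5.31 for Slc4a11.

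Slc4a4 became the leading member in KO, at a level somewhat below that of WT. The gene runs from 88886818 to 89239653 on the plus strand of chromosome 5. WT libraries 1 to 5 had 942, 979, 987, 938 and 1002 CPM. KO libraries 1 to 5 had 879, 807, 867, 807 and 560.5 CPM. Every KO library was below every WT library, and KO 5 lay far under the other KO libraries. WT and KO libraries failed to overlap for 12.0% of all genes tested.

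The Slc4a4 difference was -0.31 on the log2 scale (SE 0.11) and did not pass the threshold (edgeR adjusted p = 0.0703). It passed without KO 5, where the difference was smaller but the spread tighter (log2 fold change -0.20, SE 0.06; edgeR adjusted p = 0.0373), and with DESeq2 (-0.31, SE 0.11; adjusted p = 0.0243). With the epithelial markers as a covariate it was -0.18 (edgeR adjusted p = 0.471), and with KO limited to KO 3 and KO 4, its libraries lowest in epithelial markers, it was -0.21 (edgeR adjusted p = 0.223). Set against the summed corneal endothelium markers of the same library, Slc4a4 CPM amounted to 8.39% to 9.19% in WT and 5.94% to 7.41% in KO, again without overlap. Most of that marker sum was Col8a2, with a mean of 7374 CPM in WT and 7619 CPM in KO (log2 fold change 0.05). The log2 fold changes of the 8 markers ran from -1.07 (Grip1) to 0.20 (Col8a1), so the ratio does not stand for each marker. In such bulk samples, fewer cells of a type and less RNA per cell cannot be told apart.

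Slc4a7 and Slc4a10, the electroneutral sodium bicarbonate transporters, did not pass the test. Slc4a7, on chromosome 14 from 14702279 to 14799940 (plus strand), was at 7.85, 6.97, 8.58, 7.37 and 8.77 CPM in WT 1 to 5 and at 8.23, 7.67, 7.30, 7.06 and 5.68 CPM in KO 1 to 5. The 2 ranges overlapped widely, and the log2 fold change was -0.14 (SE 0.11, approximate 95% interval -0.35 to 0.07; edgeR adjusted p = 0.41), and -0.06 without KO 5. Slc4a10, on chromosome 2 from 62046462 to 62326730 and 68.6 Mb from Slc4a11, rested on 7 to 30 counts per library. WT held 0.415 to 0.683 CPM (median 0.536) and KO 0.166 to 0.548 CPM (median 0.456). At this depth its log2 fold change of -0.40 had an SE of 0.29 (edgeR adjusted p = 0.369), with an approximate 95% interval of -0.97 to 0.16, and without KO 5 (7 counts) the value was -0.20.

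Slc4a8, the sodium-driven chloride bicarbonate exchanger NDCBE, is best known from neurons. It lies on the plus strand of chromosome 15 from 100761747 to 100823968. WT libraries 1 to 5 had 33.6, 30.4, 30.7, 31.7 and 32.6 CPM, and KO libraries 34.2, 35.5, 36.8, 35.8 and 27.2 CPM. KO 1 to KO 4 were all above every WT library and KO 5 below every one. The log2 fold change was 0.09 (SE 0.08; edgeR adjusted p = 0.433) and, without KO 5, 0.17 (SE 0.05; edgeR adjusted p = 0.0508). The 6 neuron markers summed to 0.342 to 0.827 CPM in WT and 0.453 to 1.19 CPM in KO. The neuronal nuclear protein gene Rbfox3 was at 0 counts in 5 of the 10 libraries. Tubb3, the only marker of the 6 that was tested, had a mean of 0.303 CPM in WT and 0.474 CPM in KO. Its log2 fold change was 0.62 (SE 0.44, edgeR adjusted p = 0.365). The part of neurons in the Slc4a8 values was not tested.

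Slc4a5 was uneven, with high and low libraries in both genotypes. Known best from choroid plexus and ciliary body, NBCe2 is encoded on the plus strand of chromosome 6 from 83219828 to 83304945. Its counts were 11, 5, 9, 5 and 42 in WT 1 to 5 and 34, 9, 53, 4 and 6 in KO 1 to 5. WT 5 (0.830 CPM), KO 1 (0.811 CPM) and KO 3 (1.15 CPM) stood apart, and the other 7 libraries lay between 0.105 and 0.300 CPM. The gene did not pass the filter on low counts and was not tested.

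Of the 6 pigment cell markers, Tyrp1 and Dct were highest in the same 3 libraries as Slc4a5, and the other 4 were not. Tyrp1, a melanin synthesis enzyme, was at 1.20 CPM in WT 5, 1.31 in KO 1 and 2.43 in KO 3, against 0.205 to 0.758 CPM elsewhere. Dct, another enzyme of melanin synthesis, was at 2.15, 3.72 and 8.39 CPM there, against 0.251 to 1.23 CPM elsewhere. Tyr and Mlana were highest in KO 3 and KO 1, but WT 3 lay above WT 5 for Tyr, and KO 2 (0.232 CPM) above WT 5 (0.198 CPM) for Mlana. Pmel was highest in KO 3, KO 5 and KO 2 (4.13, 3.81 and 3.48 CPM), and Oca2 in WT 3 and WT 4 (0.296 and 0.293 CPM). The 6 pigment markers together summed to 2.88 to 7.03 CPM in WT and 4.21 to 16.4 CPM in KO; 3 of the 6 could be tested and none of these passed, and none of the 6 was at 0 in all libraries. Their part in the Slc4a5 values was not tested.

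**Figure D2:**
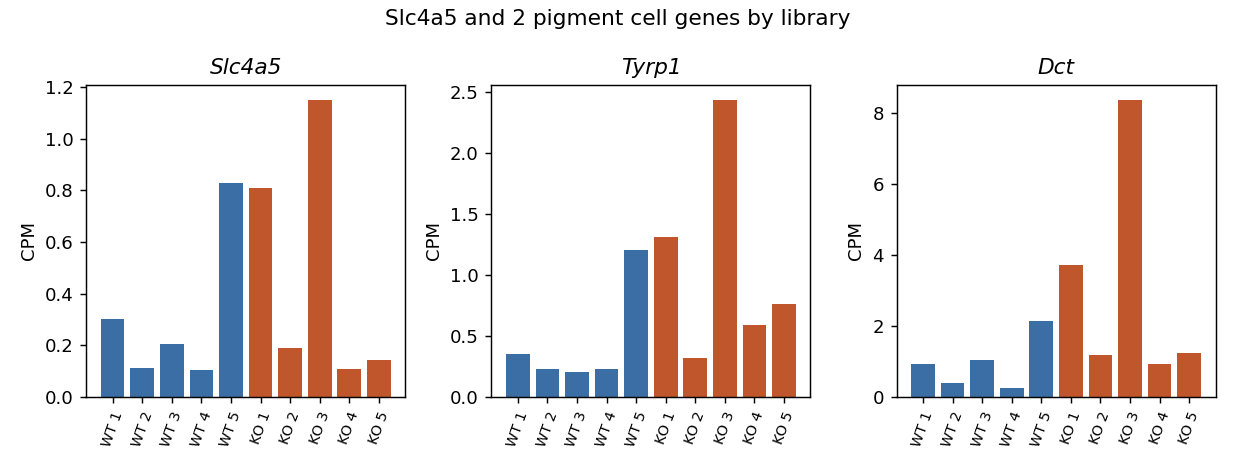
CPM of Slc4a5 and of Tyrp1 and Dct, the 2 of 6 pigment cell markers with the same 3 highest libraries, in each of the 10 libraries (WT blue, KO orange; bars are single libraries, so there is no error bar). In each panel the tallest bars are KO 3, KO 1 and WT 5, for Slc4a5 at 1.15, 0.811 and 0.830 CPM.

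Among the anion exchangers, Slc4a2 rose by a small amount. It lies on the plus strand of chromosome 5 from 24423837 to 24440950. WT libraries 1 to 5 had 59.0, 59.6, 58.0, 64.6 and 64.7 CPM, and KO libraries 81.3, 75.0, 75.1, 71.6 and 65.2 CPM. No KO library reached down to the WT range, although KO 5 came within 1 CPM of it. The log2 fold change was 0.27 (SE 0.06; 1.20-fold; edgeR adjusted p = 0.0155), and the call held when any 1 library was left out (0.23 to 0.31).

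With KO limited to KO 3 and KO 4 the value was the same but did not pass (0.27, SE 0.07; edgeR adjusted p = 0.0512). Exons of Fastk, a mitochondrial RNA-binding protein gene on the opposite strand, cover 13.7% of the merged Slc4a2 exons, and whether counting used strand is a point not given in the sources used here. Fastk itself had a mean of 29.9 ± 2.75 CPM across WT and 29.1 ± 0.549 CPM across KO (SD, n = 5), and did not pass (edgeR adjusted p = 0.689).

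Slc4a3 and Slc4a1, the other anion exchangers, gave no call. Slc4a3, known from heart, brain and retina, lies on chromosome 1 from 75546266 to 75562172 (plus strand). It ranged more widely in WT (6.43, 15.9, 14.8, 9.78 and 10.8 CPM in libraries 1 to 5) than in KO (10.8, 10.8, 11.0, 9.21 and 8.57 CPM), and the KO libraries all lay within the WT range. Its log2 fold change was -0.20 (SE 0.20, approximate 95% interval -0.59 to 0.19; edgeR adjusted p = 0.538), and it was -0.34 without WT 1, -0.09 without WT 3 and -0.05 without WT 2. Slc4a1, on chromosome 11 from 102348824 to 102366203 (minus strand), had 4 counts in the WT libraries together and 0 in each KO library, where a count of 0 allows up to 3 counts, or 0.0632 to 0.0805 CPM. All libraries were at or under that floor, so no fold is given and the gene was not tested.

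The red cell genes that Slc4a1 belongs with were present at low levels. The 8 red cell markers summed to 29.0 to 97.3 CPM in WT and 11.7 to 43.7 CPM in KO. Of the 6 that could be tested 1 fell, where 7.73% of all genes tested fell. Slc4a1 counts were too few to be set beside these markers.

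Counted together, 7 of the 9 genes passed the filter on low counts, and of these 1 rose (Slc4a2), 1 fell (Slc4a11) and 5 did not pass the test. Of all 17729 genes tested, 7.59% rose and 7.73% fell, 15.3% in all, so apart from the deleted gene itself the family's 1 call among 6 tested genes is near the background. Groups did not overlap for 3 of the 7 (Slc4a11, Slc4a4 and Slc4a2), where 12.0% of all genes did not overlap. Slc4a11 is the deleted gene, so its separation was set by the design. The median log2 fold change was -0.20 over the 7 tested members, Slc4a11 included, and 0.00 over all genes tested. With KO limited to KO 3 and KO 4, 0 members rose and 1 fell.

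**Figure D3:**
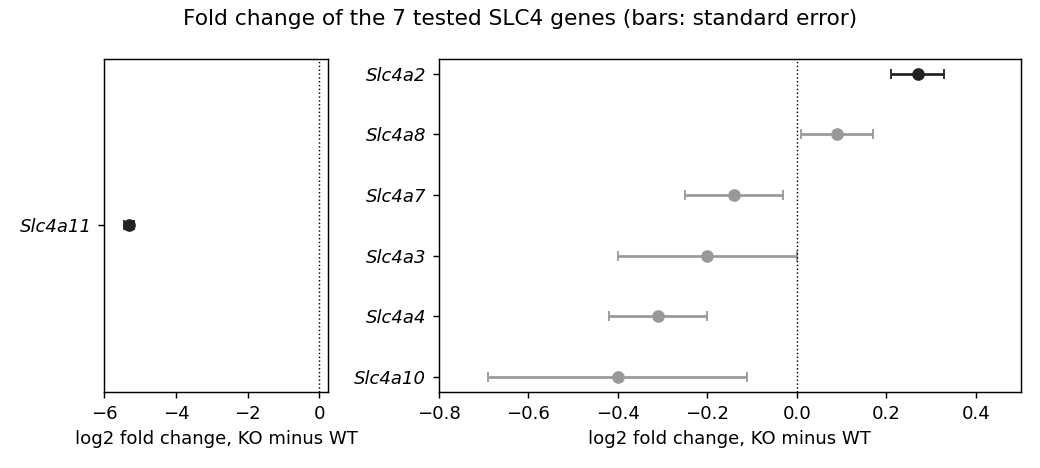
Log2 fold change (KO minus WT) of the 7 tested SLC4 genes with its standard error, n = 5 libraries per genotype; black points passed the test and grey points did not. Slc4a11 has its own axis at -5.31, Slc4a2 is at 0.27, and the other genes lie between -0.40 and 0.09.

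The summed per-length level of the family shows what the deletion left. All 9 genes together amounted to 860.0 ± 72.3 CPM per kb in WT and 105 ± 16.1 in KO (SD, n = 5 each), 12.2% of the WT level. Slc4a11 made up 88.1% ± 1.00 of that sum in WT and 18.2% ± 1.05 in KO, with the exon length of the intact gene as divisor in both. The share of Slc4a4 went from 10.5% ± 0.876 to 69.0% ± 1.48, and that of Slc4a2 from 0.861% ± 0.0993 to 8.54% ± 0.906. Because shares have a common sum, a lower Slc4a11 share raises the others whatever their own levels.

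Without Slc4a11, the other 8 genes summed to 98.2, 102, 103, 98.6 and 105 CPM per kb in WT 1 to 5. In KO 1 to 5 they summed to 95.7, 88.2, 94.0, 87.6 and 63.2 CPM per kb. Every KO library was below every WT library, with a mean of 101 ± 2.94 in WT and 85.7 ± 13.1 in KO (SD, n = 5 each). The KO mean was 84.5% of the WT mean and 90.1% without KO 5. Slc4a4 provided 87.9% to 88.7% of this sum in WT and 82.0% to 85.3% in KO, so the sum follows it closely. The group mean of Slc4a2 went from 7.35 to 8.85 CPM per kb and that of Slc4a4 from 89.7 to 72.5, so the rise of the former was small beside the difference in the latter.

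**Figure D4:**
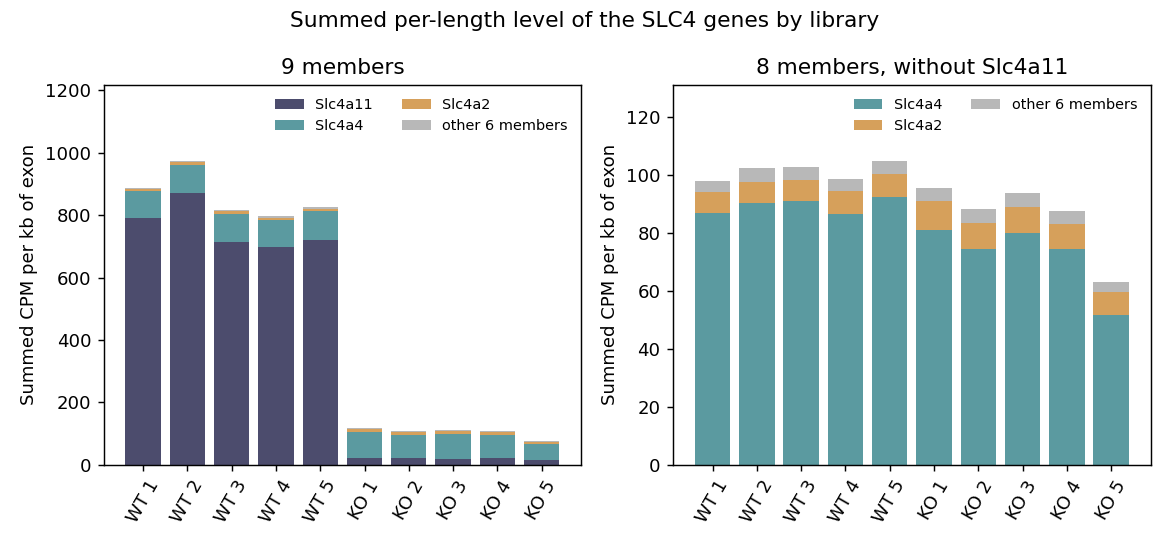
Summed CPM per kb of merged exon in each library, stacked by gene, for the 9 SLC4 genes (left) and for the 8 genes other than Slc4a11 (right, its own axis); both axes start at 0 and bars are single libraries. The left panel falls from a mean of 860.0 in WT to 105 in KO, and the right panel shows the lower Slc4a4 bars of the KO libraries, lowest in KO 5 at a total of 63.2.

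KO 5 was the lowest KO library for all 7 tested members, Slc4a11 included. Among all genes tested, KO 5 was the lowest KO library for 28.9%. The same library had the lowest sum of corneal endothelium markers (9444 CPM, against 11448 to 12127 CPM in the other KO libraries) and the highest sum of epithelial markers (3471 CPM). Of the 8 endothelium markers 2 fell, none rose and 6 did not pass, where 7.73% of all genes tested fell and 7.59% rose. The part of these markers in the KO 5 values was not tested. The summed endothelium markers were mostly Col8a2. As a percent of that sum, Slc4a4 was still lowest in KO 5 (5.94%, with the next KO library at 6.67%). Slc4a2 was highest in KO 5 on that scale, with 0.540% to 0.594% in WT and 0.592% to 0.690% in KO, where the ranges just met. Slc4a8 was at 0.273% to 0.308% in WT and 0.282% to 0.314% in KO.

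**Figure D5:**
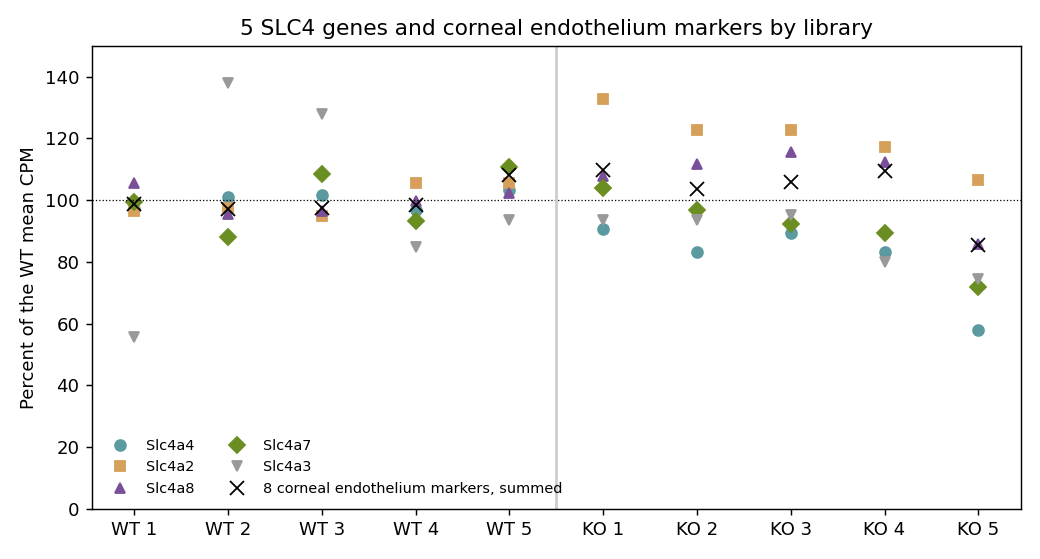
Level of 5 SLC4 genes and of 8 summed corneal endothelium markers in each library, as a percent of the WT mean CPM (dotted line at 100; points are single libraries). Slc4a4 is below 100 in all KO libraries, Slc4a2 is above 100 in all of them, and KO 5 is lowest for every series in KO.

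Other genes of bicarbonate-dependent transport were taken from 6 lists with 60 genes, of which 44 were tested: 7 rose, 9 fell and 28 did not pass, with a median log2 fold change of 0.00. Over all genes tested 7.59% rose and 7.73% fell, 15.3% in all, and the counts of each list below are to be read beside these shares. Closest in function to the SLC4 exchangers are the anion exchangers of the SLC26 family. Of 5 tested, 1 fell, none rose and 4 did not pass (median -0.23). Slc26a7, a chloride and bicarbonate transporter of stomach and kidney, was abundant here, at 74.6 ± 11.2 CPM per kb in WT (SD, n = 5), where Slc4a4 was at 89.7. Its WT libraries 1 to 5 had 425, 300.1, 438, 454 and 407 CPM and its KO libraries 301, 364, 282, 207 and 264 CPM, and the groups overlapped through WT 2. The log2 fold change was -0.51 (SE 0.14; edgeR adjusted p = 0.0318). That call was lost when WT 1, WT 3, WT 4, WT 5, KO 1, KO 4 or KO 5 was left out (-0.62 to -0.42 over all 10 such fits). In the fit limited to KO 3 and KO 4 it was -0.72 (edgeR adjusted p = 0.0318), and with keratocyte markers as a covariate -0.33 (edgeR adjusted p = 0.0494).

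Regulators of SLC4 transport gave 1 fall among 5 tested genes, with 4 not passed and a median of 0.00. The gene that fell was Ahcyl1, which encodes IRBIT, a protein that binds and activates NBCe1. Its mean was 117 ± 5.11 CPM across WT and 98.2 ± 5.01 CPM across KO (SD, n = 5), a log2 fold change of -0.25 (SE 0.05; edgeR adjusted p = 0.00976). WT libraries were at 112 to 125 CPM and KO libraries at 93.3 to 106 CPM, without overlap. With KO limited to KO 3 and KO 4 it did not pass (-0.22; edgeR adjusted p = 0.13). Its relative Ahcyl2 was at -0.01 and the kinase Wnk1 at 0.08, neither passing.

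Carbonic anhydrases changed in both directions, with 2 of 13 tested higher, 3 lower, 8 not passed and a median of -0.04. Car9, a membrane enzyme that faces outward, fell from 233 ± 35.1 to 136 ± 15.7 CPM (SD, n = 5) and Car14, also an outward-facing membrane enzyme, from 53.9 ± 5.43 to 34.3 ± 4.19 CPM. The mitochondrial Car5a fell from 0.782 ± 0.157 to 0.403 ± 0.102 CPM. Cytosolic Car2 rose from 1.43 ± 0.340 to 2.36 ± 0.156 CPM and cytosolic Car13 from 0.920 ± 0.0440 to 1.73 ± 0.373 CPM. The edgeR adjusted p ranged from 7.3e-04 (Car9) to 0.015 (Car2), and with KO limited to KO 3 and KO 4 Car2 and Car5a no longer passed (0.71 and -0.87). Exons of Aph1a on the opposite strand cover 17.5% of the Car14 exons.

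The sodium pump, whose gradient drives sodium bicarbonate cotransport, had 2 of 9 tested subunits higher, 3 lower and 4 not passed (median 0.01). Atp1b2 had the largest change of these, from 35.7 ± 2.74 to 14.4 ± 2.31 CPM (SD, n = 5). Atp1b1 fell from 1747 ± 124 to 1398 ± 118 CPM, while Atp1b3 rose from 319 ± 27.9 to 392 ± 31.2 CPM and Fxyd1 from 9.97 ± 1.77 to 13.6 ± 2.03 CPM. Calls were lost for Atp1b3 without WT 3, WT 5, KO 1 or KO 4 (0.25 to 0.34 on the log2 scale over all such fits), and for Fxyd1 on leaving out any of WT 2, WT 3, WT 5, KO 2, KO 4 and KO 5 (0.35 to 0.53). With KO limited to KO 3 and KO 4, Atp1b2 also passed. In that fit of fewer libraries Atp1b1 (-0.24, against -0.32 with all libraries), Atp1b3 (0.34, against 0.30) and Fxyd1 (0.30, against 0.45) did not pass. Exons of Nme7, which rose, cover 18.7% of the Atp1b1 exons on the opposite strand.

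In the list of proton and lactate exit, 7 genes were tested, with 1 higher, 1 lower and 5 not passed (median 0.01). Slc16a3 encodes MCT4, which exports lactate with protons, and its mean was 82.0 CPM across WT (69.1 to 93.1) and 20.7 CPM across KO (14.8 to 24.8; edgeR adjusted p = 6.6e-06). Emb, an ancillary protein of lactate transporters, rose from 12.4 ± 2.92 to 21.3 ± 6.35 CPM, with an edgeR adjusted p of 0.0242. The Emb call was lost without WT 2, WT 3 or KO 2 (0.63 to 0.90 on the log2 scale over all such fits). Among 5 water channels tested, 2 were higher, 0 lower and 3 not passed (median 0.30). Those higher were Aqp3 and Aqp5, both known from corneal epithelium, and their KO libraries spanned 15.2 to 102 CPM and 0.978 to 416 CPM. With KO limited to KO 3 and KO 4 Aqp3 was at 0.31 (edgeR adjusted p = 0.294) and Aqp5 at -0.04 (edgeR adjusted p = 0.988). Leaving out WT 3, WT 5 or KO 1 ended the Aqp3 call (1.27 to 2.02 over all such fits), and leaving out WT 1, WT 3, WT 4, WT 5, KO 1 or KO 5 ended that of Aqp5 (2.75 to 4.73).

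A fit with the epithelial markers as a covariate gave fewer calls, mostly with folds of much the same size. Car9, Car14, Atp1b2, Slc16a3, Slc4a2 and Slc4a11 still passed. Among genes that did not pass there, the log2 fold change was -0.51 for Slc26a7 in both fits, and it went from -0.32 to -0.30 for Atp1b1, from 0.30 to 0.28 for Atp1b3, from 0.45 to 0.40 for Fxyd1 and from -0.25 to -0.21 for Ahcyl1. Of the carbonic anhydrases that did not pass, Car2 went from 0.72 to 0.64, Car13 from 0.91 to 0.73 and Car5a from -0.95 to -0.81. Emb went from 0.78 to 0.53. The water channels moved most: Aqp3 went from 1.81 to 0.34 and did not pass, and Aqp5 went from 3.96 to -1.21, lower in KO (edgeR adjusted p = 0.00719).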

How the data were processed

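Per the labels' protocols, libraries were made with a stranded, poly(A)-selecting kit from 100 ng of total RNA of integrity number above 7, with 12 PCR cycles, and sequenced as paired ends. The authors deposited raw read counts per gene. Tools in the submitters' processing notes are HISAT2 2.1.0, Subread 1.6.4 with featureCounts, cutadapt 2.4 and Trim Galore 0.6.4, with the build GRCm38.p6; annotation release, strand setting and treatment of multi-mapped reads are points not given in the sources used here. Identifiers were matched to GENCODE M21 (GRCm38), which gave symbols, coordinates and exon lengths.

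Groups follow the genotype in the labels. edgeR 4.0.16 (R 4.3.3) kept genes by filterByExpr (minimum count 10, total 15), scaled by TMM and tested KO against WT by quasi-likelihood without covariates. Calls have a Benjamini-Hochberg adjusted p under 0.05 over 17729 genes; the script was tested on simulated data. Fold changes are log2, and each SE is the log2 fold change divided by the root of F. Intervals for counts of 0 cover counting error only. Libraries of a genotype all differed by more than sampling noise (chi-square over its degrees of freedom 14.7 to 87.5).

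Members and lists were chosen with earlier results of these data known. Named were the members, called genes of the pathway lists and the 3 profiles nearest to Slc4a11. Members' opposite-strand partners and defining markers that bear on a member were also named. Ahcyl2, Wnk1, Aph1a, Nme7 and Tubb3 were named after their values were seen. Some genes counted in the lists are not reported here by name. Alternatives were DESeq2 1.42.0, limma-voom (limma 3.58.1), other scalings and filters, the replicate number as a block, and each library left out. Once the data had been seen, fits with KO limited to KO 3 and KO 4 and fits with epithelial or keratocyte marker covariates were added.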

Additional observations from a re-analysis of the deposited data

Results flagged for a closer look

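In groups of 5 libraries, a highest or lowest value was marked where its gap to the nearest library, as a share of the group's range, exceeded Dixon's 95% critical value. Chance marks about 1 in 20 groups, and 4 of 56 groups (28 named genes in 2 genotypes) were marked. Slc4a4 was lowest in KO 5 at 560.5 CPM, with the next KO library at 807 CPM. Slc4a8 was lowest in KO 5 at 27.2 CPM, with the next at 34.2 CPM. Slc4a5 was highest in WT 5 at 0.830 CPM, with the next WT library at 0.300 CPM. Car14 was lowest in WT 4 at 44.5 CPM, with the next WT library at 54.3 CPM.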

How the results depend on the processing

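Across the 7 tested members, with up to 21 alternatives each, 142 values kept direction and side of the threshold, 2 lost the call and 2 gained it, and 0 changed sign. The Slc4a11 fold change stayed between -5.38 and -5.22. The replicate block ended the Slc4a2 call (0.27, edgeR adjusted p = 0.0683). With the replicate block 0 members, 4 pathway genes and 750 genes in all rose, against 1, 7 and 1346 without it, and 7 pathway genes and 941 genes in all fell, against 9 and 1370. The block also ended the calls of Atp1b1 (-0.32, edgeR adjusted p = 0.0682), Slc26a7 (-0.52, 0.0954), Fxyd1 (0.45, 0.0648), Aqp3 (1.39, 0.0771) and Aqp5 (2.57, 0.295). limma-voom ended those of Aqp3 (1.41, limma adjusted p = 0.0874) and Aqp5 (2.57, 0.331), and the keratocyte covariate that of Aqp5 (3.69, edgeR adjusted p = 0.077). Same-numbered libraries correlated at 0.02, -0.07, -0.25, 0.09 and -0.42, each under the highest correlation with another number (0.18 to 0.48). These values serve to rank pairs of libraries and are not correlations of the expression levels themselves. No pairing by number was seen in these values. The labels name no batch, and whether same-numbered libraries shared one was not tested. With KO limited to KO 3 and KO 4, 0 members rose, 1 pathway gene rose, and 527 genes rose and 578 fell in all, against 1346 and 1370. The epithelial covariate left 0 pathway genes higher, and 503 genes higher and 609 lower in all; Aqp5 turned to -1.21 there and to -0.04 with KO 3 and KO 4. DESeq2 called 2 members lower, Slc4a4 beside Slc4a11. Leaving out 1 library gave 1 to 2 members lower, 2 to 8 pathway genes higher (lowest without WT 3, then 3 without WT 5 and 4 without KO 1) and 836 to 1532 genes higher in all (836 without WT 3, 850 without WT 5, 895 without KO 1). Fastk turned to 0.01 without WT 2. Fewer libraries enter some of these fits; otherwise the cause was not tested. Depth limits Slc4a1, Slc4a5 and Slc4a10.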

Other observations

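Markers of other cell types were counted beside the family. Of all genes tested, 7.59% rose, 7.73% fell and 12.0% had WT and KO libraries that did not overlap. Of 8 keratocyte markers 2 fell and 6 did not pass. Schwann cell markers gave 4 higher of 6 and a summed level of 68.8 to 78.5 CPM in WT and 92.2 to 133 CPM in KO, without overlap. Lens markers gave 2 higher of 4 tested (7.84 to 10.5 CPM in WT, 10.7 to 16.4 CPM in KO). Of 5 leukocyte markers none was called, and of 4 vascular endothelium markers tested 1 rose and 1 fell. Of 6 neuron markers 1 was tested, and it was not called.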
